A study of Homo sapiens with 18 samples.

Results

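The genes described here are the partners of the BCR-ABL fusion and the signalling proteins that act directly downstream of it. The 10 members were taken by symbol from the deposited gene table: BCR and ABL1 (the fusion partners), GRB2, GAB2, CRKL, SOS1 and CBL (adaptors and regulators), STAT5A and STAT5B (transcription factors), and BCL2L1 (a STAT5 target). All 10 were found among the 55766 gene symbols of the table, and all 10 are protein-coding genes. The cells were K562, an established human chronic myeloid leukaemia line, and cells of every group, untreated ones included, carried a B2M:tdTomato transgene. In each of 2 assays, RNA-seq and MeDIP-seq (sequencing of DNA captured with an antibody to 5-methylcytosine), 3 libraries came from untreated cells, 3 from TALE-silenced cells and 3 from dCas9-silenced cells. Silenced cells had received a mixture of plasmids coding for artificial repressors built on TALE or dCas9 DNA-binding proteins, with a guide RNA plasmid in the dCas9 case. The labels do not say how long after treatment cells were collected or whether replicates were separate cultures, so the tests measure the spread between these libraries, which may be technical.

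BCR-ABL is the product of a translocation that places the tyrosine kinase ABL1 behind the oligomerization domain of BCR, which leaves the kinase constantly active. The phosphorylated fusion binds the adaptor GRB2, which recruits the Ras exchange factor SOS1 and the scaffold GAB2, and it phosphorylates CRKL and activates STAT5, a transcription factor that drives survival genes such as BCL2L1. K562 is known for a fusion that joins BCR exon 14 to ABL1 exon 2 and for carrying extra copies of it. Counts per gene do not separate fusion transcripts from those of the normal BCR and ABL1 genes.

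The sequences below are those at which the 2 partner genes are known to join and those before the alternative first exons of ABL1, because the MeDIP counts along both genes are described relative to them. They were read from the GRCh37 reference, plus strand, and the capitals mark CpG, the dinucleotide that carries most DNA methylation. BCR exon 14 (chr22:23632526-23632600, coding) holds 2 CpG and ABL1 exon 2 (chr9:133729451-133729624, coding) holds 5. The 250 bases before ABL1 exon 1b (chr9:133588180-133588429) hold 25 CpG and the 250 bases before exon 1a (chr9:133710391-133710640) hold 33.
BCR exon 14: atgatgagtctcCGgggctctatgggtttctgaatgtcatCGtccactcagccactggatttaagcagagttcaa
ABL1 exon 2: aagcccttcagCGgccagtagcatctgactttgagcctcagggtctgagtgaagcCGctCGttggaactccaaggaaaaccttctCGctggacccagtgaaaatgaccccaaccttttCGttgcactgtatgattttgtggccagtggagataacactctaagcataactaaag
ABL1 exon 1b promoter: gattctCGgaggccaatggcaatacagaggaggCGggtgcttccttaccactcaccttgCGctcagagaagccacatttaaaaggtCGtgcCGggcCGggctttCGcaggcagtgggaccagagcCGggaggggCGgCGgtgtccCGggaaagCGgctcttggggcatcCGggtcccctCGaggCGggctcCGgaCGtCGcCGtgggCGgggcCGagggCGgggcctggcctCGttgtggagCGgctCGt
ABL1 exon 1a promoter: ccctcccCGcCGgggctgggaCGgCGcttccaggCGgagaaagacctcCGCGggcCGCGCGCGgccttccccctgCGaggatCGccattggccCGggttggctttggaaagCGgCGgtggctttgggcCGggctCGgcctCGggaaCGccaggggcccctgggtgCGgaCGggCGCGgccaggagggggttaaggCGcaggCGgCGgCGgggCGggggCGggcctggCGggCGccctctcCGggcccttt

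RNA libraries held 8460076 to 12050554 counts and MeDIP libraries 2529729 to 4492751. The transgene, listed as B2M_tomato, had 4109, 3115 and 3249 RNA counts in untreated cells, 128, 189 and 196 in TALE-silenced cells and 205, 154 and 140 in dCas9-silenced cells, so the silenced groups matched their labels. All 9 erythroleukaemia markers of a list (GATA1 and HBG2 among them) were above 1 CPM (counts per 1000000 counts of the library) in every library. The T and B cell markers CD3E and MS4A1 and the monocyte markers CD14 and CSF1R stayed below 1 CPM, whereas EPCAM, an epithelial marker, stood between 84.8 and 123 CPM.

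None of the 10 members was called as changed in either silenced group. In edgeR's quasi-likelihood test, 0 of 10 passed an adjusted p of 0.05 in TALE against untreated cells, in dCas9 against untreated cells or in TALE against dCas9 cells, and 0 had an unadjusted p under 0.05. Over all 13786 genes tested, 0.0218%, 0.029% and 0% were called in these comparisons, and 7.15%, 5.93% and 6.38% had an unadjusted p under 0.05. DESeq2 also called 0 of the 10, against 0.00723%, 0.104% and 0% of the genes it tested. The log2 fold changes lay between -0.09 and 0.09 for TALE, between -0.18 and 0.13 for dCas9, and between -0.10 and 0.18 for TALE against dCas9. Their medians were -0.03 for TALE and -0.03 for TALE against dCas9, and within 0.01 of 0 for dCas9, as were the medians over all genes tested. The 95% intervals of the members ran from 0.761-fold to 1.35-fold for TALE and from 0.701-fold to 1.41-fold for dCas9, which bounds the size of change these libraries leave possible.

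**Figure D1:**
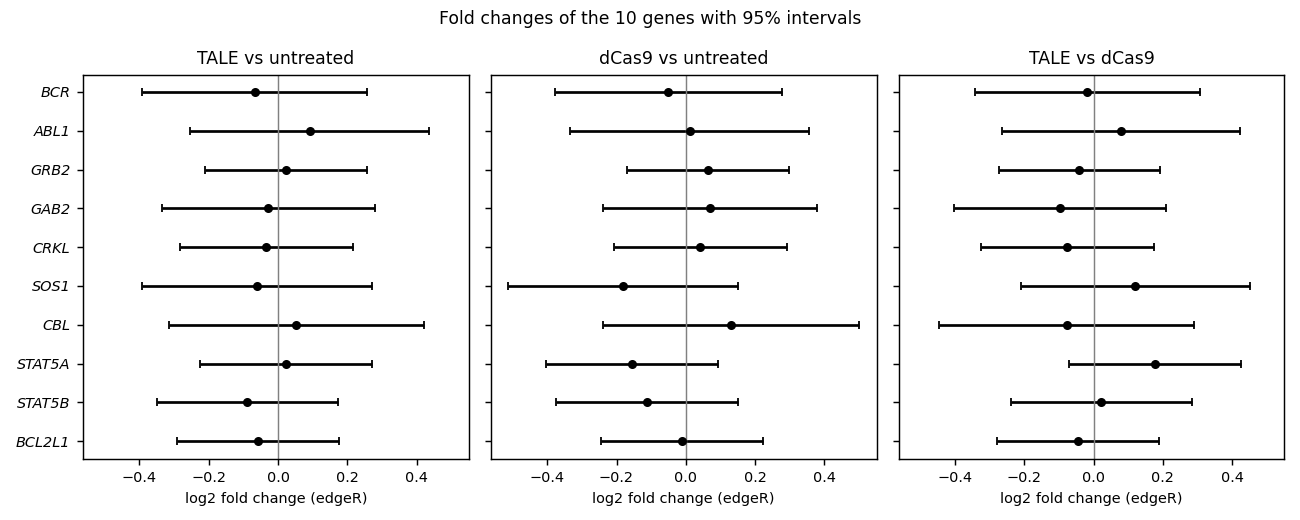
Log2 fold changes of the 10 genes (points) with 95% intervals (lines) in the 3 comparisons. Every interval includes 0.

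BCR, the partner that supplies the promoter and the oligomerization domain of the fusion, stood at 70.5, 85.3 and 85.4 CPM in untreated cells, 89.4, 84.9 and 55.5 in TALE cells and 71.4, 73.7 and 87.5 in dCas9 cells. The groups overlapped, and the lowest value belonged to TALE replicate 3. ABL1, the kinase, stood at 122, 150 and 133 CPM in untreated cells, 176, 151 and 104 in TALE cells and 122, 127 and 160 in dCas9 cells. Both the highest and the lowest ABL1 values came from TALE cells, so the spread inside that group was wider than any difference between group means. Against untreated cells the ABL1 log2 fold change was 0.09 ± 0.16 (SE, n = 3 per group; edgeR adjusted p = 0.935) for TALE and 0.01 ± 0.16 (adjusted p = 0.999) for dCas9. For BCR it was -0.07 ± 0.15 (edgeR adjusted p = 0.956) and -0.05 ± 0.16 (adjusted p = 0.996).

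Among the adaptors, GRB2, whose SH2 and SH3 domains link the fusion to Ras, stood at 93.4, 89.2 and 93.7 CPM in untreated cells, 89.6, 100.2 and 91.0 in TALE cells and 87.1, 105.8 and 96.1 in dCas9 cells. Its groups overlapped, with a pooled coefficient of variation within groups of 6.92%. GAB2, the scaffold that couples to PI3K, ranged from 38.9 CPM in TALE replicate 3 to 59.3 in dCas9 replicate 3. CRKL, a major substrate of the fusion kinase, had the highest CPM of the members, from 403 in TALE replicate 3 to 473 in dCas9 replicate 3, and the lowest variation within groups of the 10 members (4.50%). SOS1, the Ras exchange factor, stood at 192, 204 and 207 CPM in untreated cells, 250.3, 178 and 149 in TALE cells and 158, 200.01 and 173 in dCas9 cells. The TALE values of SOS1 lay on both sides of the untreated ones. CBL, a ubiquitin ligase that the kinase phosphorylates, varied most within groups (19.9%), from 61.1 CPM in TALE replicate 3 to 110.0 in TALE replicate 1.

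STAT5A was the only member with RNA groups that did not overlap, and only in dCas9 against untreated cells. It stood at 247, 269 and 270.2 CPM in untreated cells and at 229, 237 and 240.0 in dCas9 cells, all 3 below the lowest untreated value, while TALE cells had 279, 285 and 234. Its dCas9 log2 fold change was -0.15 ± 0.12 (SE, n = 3 per group; edgeR adjusted p = 0.959), and the exact two-sided permutation p was 0.1, the smallest that 3 against 3 libraries allow. Groups without overlap made up 11.6% of all genes tested in that comparison, so 1 of 10 members is near the background. In TALE against untreated cells 0 of 10 members and 12.5% of genes had no overlap, and in TALE against dCas9 cells 0 of 10 and 9.38%. STAT5B, its close paralog, ranged from 95.4 to 123 CPM with overlapping groups. BCL2L1, which codes for the anti-apoptotic protein BCL-xL, stood at 179, 174 and 169 CPM in untreated cells, 161, 176 and 164 in TALE cells and 172, 160 and 186 in dCas9 cells. STAT5A and STAT5B overlap by 1087 bases at their 5' ends on opposite strands (chr17:40439565-40440651), and how the authors' counting divided reads shared by overlapping or near-identical genes is not given in the sources used here, so both values are uncertain in that respect.

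**Figure D2:**
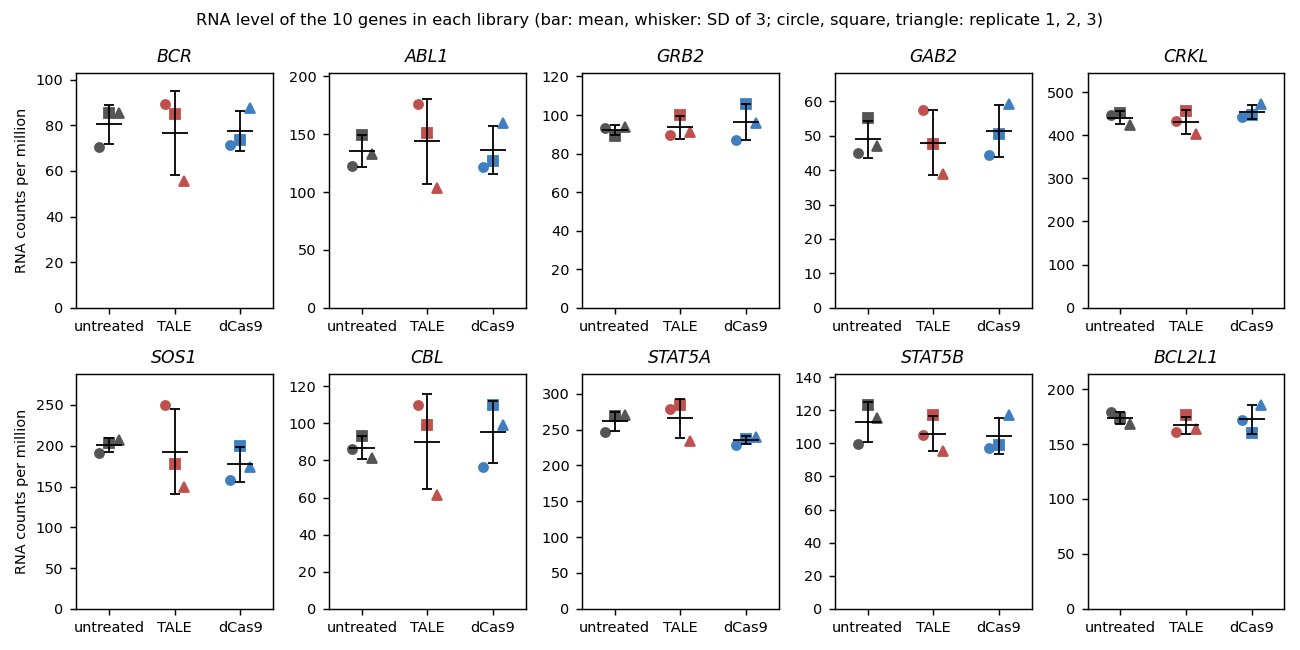
RNA CPM of each gene in the 9 libraries, by group, with the mean and SD of 3. TALE replicate 3 (triangle) is the lowest library for 7 of the 10 genes, and in the STAT5A panel the 3 dCas9 points lie below the 3 untreated points.

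Per length of exon, CRKL was the most abundant member. Scaled to the same total in every library over genes with a length, its level was 200.3 ± 29.5 (SD over 9 libraries), followed by BCL2L1 at 98.7 ± 14.5 and STAT5A at 96.9 ± 19.6, which did not differ beyond their spread. ABL1 (48.4 ± 13.0) and GRB2 (48.2 ± 7.15) formed the next pair, again within their spread. STAT5B (21.5 ± 3.65), SOS1 (20.1 ± 5.00), CBL (18.9 ± 4.87), GAB2 (17.7 ± 3.60) and BCR (15.5 ± 3.51) followed, each within the spread of its neighbour. These SDs include variation between libraries that members share, so their overlap does not show that levels were equal. Differences between members within a library were not tested. With the length of the longest transcript in place of all exons, CRKL stayed first at 165, but STAT5A (118) and BCL2L1 (105) exchanged places, ABL1 moved from rank 4 to rank 6, SOS1 from rank 7 to rank 5 and BCR from rank 10 to rank 8, so the order below CRKL depends on the length used. On this scale, which carries no TMM adjustment, the TALE mean lay above the untreated mean for 10 of 10 members (CRKL 222 ± 40.4 against 188 ± 22.6, SD, n = 3), whereas 4 of the 10 TMM-scaled fold changes were above 0, so the direction in TALE cells depends on the scaling.

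Within groups, single libraries stood apart for many members at once. TALE replicate 3 lay below its group mean for 10 of 10 members and was the lowest of all 9 libraries for 7 of them. Its median deviation was -0.23 on the log2 scale, beside 0.00 over all genes tested. The largest single deviations there were -0.51 for CBL, -0.43 for BCR and -0.43 for ABL1. The replicate 1 library of the dCas9 group also lay below its group mean for 10 of 10 members, with a median of -0.13. Exon length moved with these deviations: in TALE replicate 3 the median deviation was 0.14 for genes in the shortest quartile of exon length and -0.12 for those in the longest, and in TALE replicate 1 it was -0.09 and 0.10. Of the members, BCR, SOS1, CBL and STAT5B are in the longest quartile, ABL1, GAB2 and STAT5A in the third, and GRB2, CRKL and BCL2L1 in the second. The members of the second quartile deviated least in TALE replicate 3, but ABL1 (-0.43), GAB2 (-0.28) and STAT5A (-0.18) deviated more than STAT5B (-0.15), so the members did not follow length throughout. The part of transcript length or RNA quality in the members' spread was not tested. Without TALE replicate 3 the log2 fold changes of ABL1 and CBL in TALE against untreated cells became 0.28 (edgeR adjusted p = 0.355) and 0.27 (adjusted p = 0.374), and 0 of 10 members passed.

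**Figure D3:**
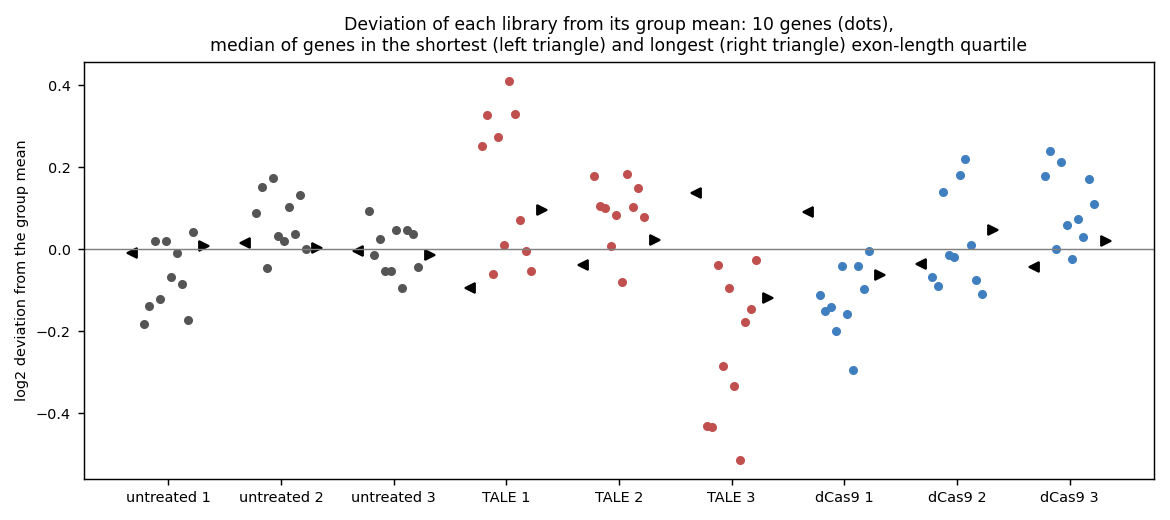
Log2 deviation of each library from its group mean for the 10 genes (dots), with the median of genes in the shortest (left triangle) and longest (right triangle) quartile of exon length. All 10 dots lie below 0 in TALE replicate 3 and in dCas9 replicate 1, and in TALE replicate 3 the triangles stand at 0.14 and -0.12.

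Over the 9 libraries, the genes most like BCR by Pearson correlation of log2 CPM were BMPR2 (0.972), FLNA (0.964) and PRRC2A (0.963). Those most like ABL1 were GCN1L1 (0.982), UPF1 (0.977) and HIC2 (0.972). The correlation between BCR and ABL1 was 0.917. With the other members BCR ranged from 0.106 (GRB2) to 0.843 (GAB2), and ABL1 from 0.033 (GRB2) to 0.902 (GAB2). Of 13785 genes, 2.73% correlated above 0.8 with BCR and 3.19% with ABL1. The 9 points behind each value share library depth and the exon-length gradient above, so the correlations are a description of 9 libraries.

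No gene of the wider pathway was called either. Of 58 listed genes of the Ras and MAPK arm, the PI3K arm, other adaptors and kinases, and JAK-STAT genes with STAT5 targets, 54 had enough counts to be tested, and edgeR called 0 higher and 0 lower in each comparison. An unadjusted p under 0.05 was reached by DOK2 and RASA1 in TALE cells and by DOK2, PIK3CD and PIM2 in dCas9 cells, which is 2 and 3 of 54, and by 0 of 54 in TALE against dCas9 cells; the shares over all genes were 7.15%, 5.93% and 6.38%, so these counts were not above the background. Groups did not overlap for 7, 6 and 2 of the 54, beside 12.5%, 11.6% and 9.38% of all genes. DOK2, an adaptor that restrains Ras signalling, stood at 6.37, 8.65 and 7.26 CPM in untreated cells, 4.90, 5.63 and 4.91 in TALE cells and 3.71, 3.83 and 5.06 in dCas9 cells. Both silenced groups lay below the untreated one, and the log2 fold change for dCas9 was -0.81 ± 0.22 (SE, n = 3 per group; edgeR adjusted p = 0.325). PIM2, a survival kinase induced by STAT5, had 303, 291 and 296 CPM in untreated cells. It had 271, 263 and 260 in TALE cells and 252, 264 and 232 in dCas9 cells, both groups below the untreated one. For DOK2 and PIM2 alike, both silenced groups were set against the same 3 untreated libraries, so the shared direction is not independent. The PIM2 log2 fold change was -0.17 ± 0.11 (edgeR adjusted p = 0.796) for TALE and -0.25 ± 0.11 (adjusted p = 0.815) for dCas9. CISH, a feedback inhibitor that STAT5 induces, overlapped between all groups. Of the 17 JAK-STAT genes and STAT5 targets tested, groups did not overlap for 3, 3 and 1 in the 3 comparisons. Against untreated cells these were STAT3 and PIM2 (lower) and SOCS3 (higher) for TALE, and JAK2, PIM2 and SOCS2 (all lower) for dCas9. In TALE against dCas9 cells it was JAK2 (higher). The shares over all genes are those given above. The STAT5 site TTCNNNGAA, which reads the same on both strands, was searched in RefSeq promoters of GRCh38.p14 (250 bases before to 50 after each start). It was found in 0 of 14 promoters of the members (CBL had no entry), in 2 of 21 promoters of the JAK-STAT list (CISH and BCL6), and in 7.66% of all 35116.

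In the MeDIP table, BCR and ABL1 were among the genes with the densest counts, with 20 and 19 protein-coding genes above them. Summed over all regions from 2000 bases before the gene to its end, BCR had 3322, 3452 and 3317 CPM in untreated cells, 3246, 3320 and 3419 in TALE cells and 3318, 3411 and 3346 in dCas9 cells. ABL1 had 4280, 4404 and 4392 CPM in untreated cells, 4427, 4252 and 4313 in TALE cells and 4350, 4255 and 4442 in dCas9 cells. The groups overlapped for both genes, and the 9 libraries varied by 1.93% and 1.71%. Per kb of gene window this was 23.9 CPM for BCR and 24.6 for ABL1, beside a median of 0.484 and a 99th percentile of 6.00 over 19177 protein-coding genes. CRKL, which lies on chromosome 22 as BCR does, had 11.1 CPM per kb, also above the 99th percentile. The other 7 members lay between 0.797 (SOS1) and 2.10 (GRB2).

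**Figure D4:**
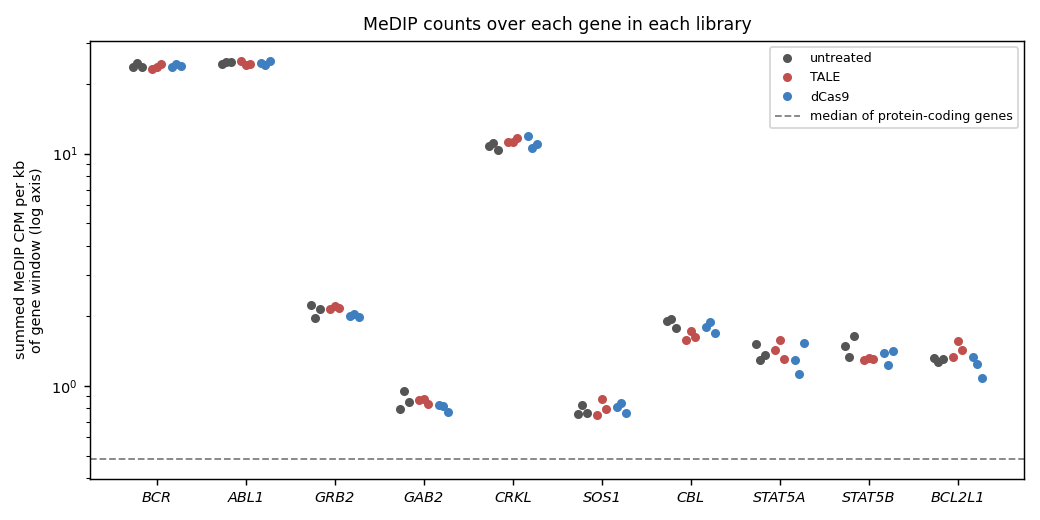
Summed MeDIP CPM per kb of gene window for each gene in the 9 libraries, on a log axis, with the median of protein-coding genes as a dashed line. BCR, ABL1 and CRKL stand apart at 23.9, 24.6 and 11.1, and the differences between groups within a gene are small beside those between genes.

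The high count per kb of gene covered only part of each partner gene. From the start of BCR to the end of exon 14 the 9 libraries averaged 30.2 CPM per kb, and from there to the end of the gene 0.220, a ratio of 137. The last region of the dense part (chr22:23629265-23632482) ended 43 bases before exon 14, and 1 region followed in the remaining 27.6 kb. In ABL1 the pattern was reversed: the first 20 kb after the exon 1b start had 0.459 CPM per kb and the rest of the gene 28.0, a ratio of 60.9. The 20 kb boundary was chosen after the values were seen, since the second region of the gene began 20.6 kb from its start (chr9:133609074-133612089). Regions covered 1.21% of the first 20 kb of ABL1 and 49.1% of the rest. The 1 region in the first 20 kb was 242 bases long. Per kb of its own length it had 42.8, 39.3 and 31.7 CPM in untreated, TALE and dCas9 cells. These values lay inside the range of the 35 regions that followed. CpG content was similar in both parts, at 1.99 and 1.99 CpG per 100 bases in the parts of BCR and 1.63 and 1.58 in those of ABL1. The step was present in every library, with 29.3 to 31.1 CPM per kb before and 0.0860 to 0.279 after the end of BCR exon 14. The MeDIP counts cover only the deposited regions, and the rule that set them is not given. A part without regions therefore has no counts rather than a measured 0. Genomic copies of these parts were not measured here, the libraries without immunoprecipitation that the labels mention were not analysed here, and the part of copy number in the density was not tested.

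**Figure D5:**
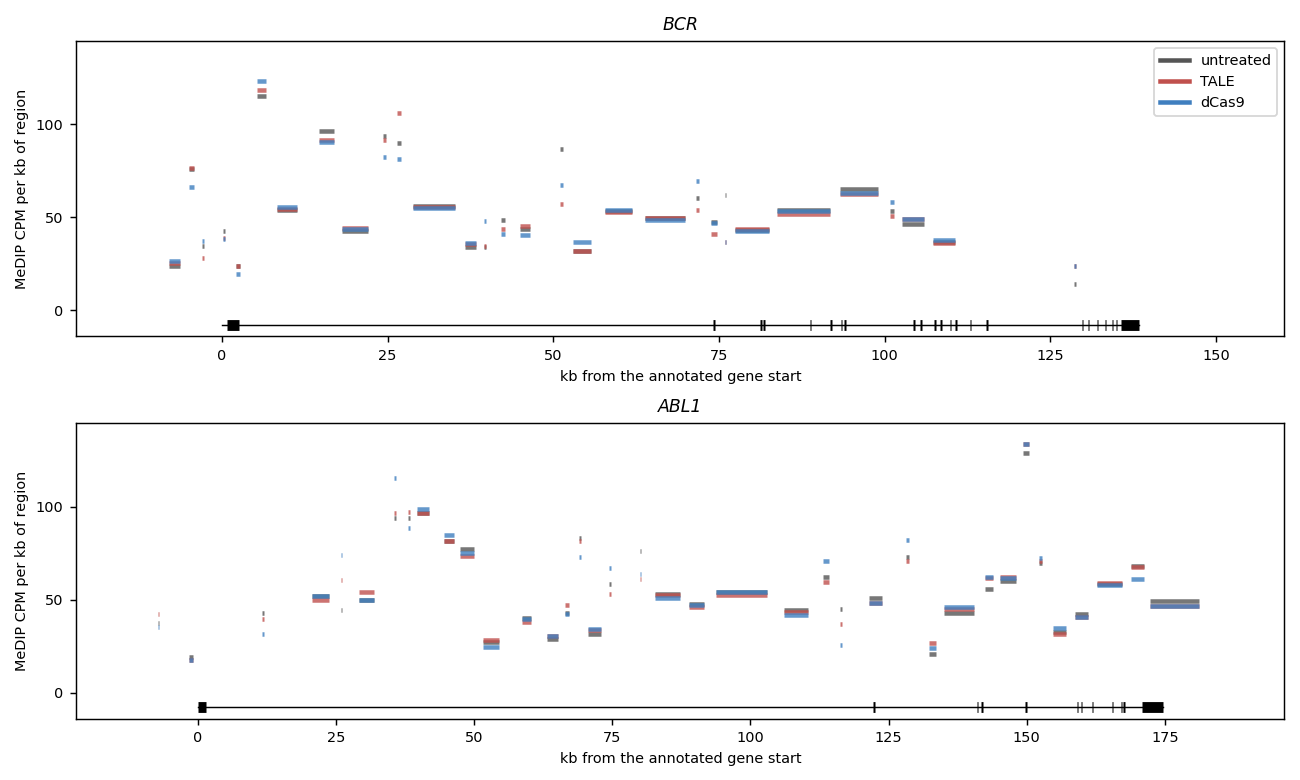
MeDIP CPM per kb of each region along BCR and ABL1, by distance from the annotated gene start, as the mean of 3 libraries per group, with the annotated exons as black blocks below. Closely spaced regions end 43 bases before exon 14 in BCR and begin 20.6 kb from the start in ABL1, while the height of single regions overlaps on both sides in ABL1.

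Outside the genes, the 100 kb before BCR had 1.60 CPM per kb and the 100 kb after it had no region. Before ABL1 the value was 0.296 and after it 7.65. Within 500 kb, 0 of 9 neighbours of BCR were above the 99th percentile, beside 3 of 12 for ABL1 (FAM78A, NUP214 and QRFP) and 8 of 14 for CRKL. The 100 kb before CRKL had 10.3 CPM per kb and the 100 kb after it 4.46.

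Of the alternative first exons of ABL1, exon 1a lies in a MeDIP region and exon 1b does not. The exon 1a promoter printed above lies inside a region (chr9:133709845-133712296) with 132, 128 and 116 CPM in untreated cells, 130.4, 114 and 111 in TALE cells and 122, 115 and 116 in dCas9 cells, and all 9 peak lists held a peak there. Its log2 fold change was -0.09 ± 0.09 in both silenced groups (SE, n = 3 per group; edgeR adjusted p = 1.00 for each). The exon 1b promoter, which holds fewer CpG, overlapped no region, and the nearest one ended 820 bases before the exon 1b start. The 2 promoters lie on different sides of the step in density, and counts per region do not resolve which bases of a 2452-base region were captured. Of the other members, BCR had a region 138 bases from its annotated gene start with 11.2 CPM. For the rest, the region nearest to that start lay 1341 (SOS1), 1439 (CRKL), 1554 (BCL2L1) and 1626 (GAB2) bases away. For CBL it lay 2061 bases away, for STAT5B 3312, for STAT5A 4846 and for GRB2 5838.

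No MeDIP region of a member was called as changed. The members held 237 of the 198884 regions, 211 of them with enough counts to be tested among 105652, and edgeR called 0 of 211 in each comparison, beside 0%, 0.000947% and 0.000947% of all regions tested. An unadjusted p under 0.05 was reached by 6, 12 and 11 member regions (2.84%, 5.69% and 5.21%), beside 4.74%, 4.69% and 4.47% of all regions. The lowest p in TALE against untreated cells, 0.00130, belonged to an intronic region of BCR (chr22:23572952-23573313) with a log2 fold change of -0.59 ± 0.18 (edgeR adjusted p = 1.00). Summed per gene, TALE and untreated libraries did not overlap for 4 of 10 members, beside 11.4% of 12942 protein-coding genes. CBL and STAT5B were lower in TALE cells, with log2 ratios of -0.19 and -0.18, and CRKL and BCL2L1 were higher, with 0.08 and 0.15. CBL had 208, 213 and 194 CPM in untreated cells and 173, 188 and 177 in TALE cells. STAT5B had 135, 122 and 149.7 in untreated cells and 119, 120.2 and 119 in TALE cells. The exact two-sided permutation p was 0.1 for each of the 4, the smallest the design allows, so none can pass 0.05. In dCas9 against untreated cells 0 of 10 had no overlap, beside 11.9%, and in TALE against dCas9 cells 2 of 10 (GRB2 and GAB2, both higher in TALE cells), beside 10.1%.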

How the data were processed

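Each assay, RNA-seq and MeDIP-seq, had 9 libraries, 3 per group. Whole-number counts by gene symbol were deposited for RNA, from reads aligned with STAR 2.3.0 to hg19 per the submitters' processing notes; RNA was amplified with a kit for degraded RNA, per the labels' protocols. For MeDIP the authors deposited unnormalized counts by region, with BWA 0.7.5, Picard, MACS2 and bedtools named in those notes; libraries were pooled before capture, per the labels' protocols. The deposited peak lists give a fold enrichment ratio per peak, called per sample, of which only the presence of a peak is used in the text. The counter, annotation, use of strand and rule that set the regions are not given in the sources used here.

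Counts were fitted with edgeR 4.0.16 (TMM, filterByExpr with a minimum of 10, quasi-likelihood test, Benjamini-Hochberg over all features) in one model of 3 group means, and checked on simulated data. RNA CPM are TMM-scaled, and MeDIP CPM are relative to the total of the table. Single values were compared by exact permutation. Alternatives were other scalings, filters, DESeq2 1.42.0, a replicate block and leaving out each library. Gene positions and exon lengths came from GENCODE on GRCh37, which matched 35038 of the 55766 symbols. All 10 members were named whatever their values, with pathway genes of an unadjusted p under 0.05. CISH and the genes of the JAK-STAT list without overlap between groups were named as well. The members and lists were chosen with earlier results of these data known.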

Additional observations from a re-analysis of the deposited data

How the results depend on the processing

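The count of members called was 0 of 10 for RNA and 0 of 211 for MeDIP regions in all 3 comparisons and under every alternative run, DESeq2 (RNA) and each library left out included. With the replicate number as a block the count was 0 in each comparison, too; same-numbered libraries did not deviate together (correlations from -0.43 to 0.15), so the numbers were not taken to pair the samples. The sign of small RNA fold changes was not stable: of 130 alternative values in each comparison, 15, 8 and 15 changed sign, and the lowest edgeR or DESeq2 adjusted p over them was 0.355, 0.699 and 0.339. Leaving out 1 library changed the sign for the following genes, and the cause was not tested. In TALE against untreated cells, the log2 fold changes ran from -0.028 to 0.11 for STAT5A, -0.17 to 0.10 for GAB2, -0.079 to 0.28 for ABL1, -0.11 to 0.27 for CBL, -0.028 to 0.055 for GRB2, -0.19 to 0.12 for BCR, -0.076 to 0.013 for CRKL and -0.29 to 0.094 for SOS1. In dCas9 against untreated cells, the log2 fold changes ran from -0.12 to 0.091 for ABL1, -0.068 to 0.040 for BCL2L1, -0.14 to 0.0051 for BCR, -0.0084 to 0.13 for GRB2 and -0.044 to 0.17 for GAB2. In TALE against dCas9 cells, the log2 fold changes ran from -0.090 to 0.27 for ABL1, -0.11 to 0.28 for SOS1, -0.055 to 0.11 for STAT5B, -0.14 to 0.17 for BCR, -0.24 to 0.034 for GAB2, -0.24 to 0.14 for CBL, -0.11 to 0.033 for GRB2 and -0.097 to 0.0070 for BCL2L1. With upper-quartile factors the log2 fold change was -0.0029 for GRB2 and -0.0054 for STAT5A in TALE against untreated cells and -0.0030 for STAT5B in TALE against dCas9 cells. With no filter on low counts it was 0.0058 for GAB2 in TALE against untreated cells, 5.0e-05 for BCL2L1 in dCas9 against untreated cells and 0.0044 for BCR in TALE against dCas9 cells. Over all genes, edgeR called 16 in TALE against untreated cells without TALE replicate 3, in place of 3, and 21 in TALE against dCas9 cells without dCas9 replicate 1, in place of 0. With no filter it called 74, 89 and 77 genes in the 3 comparisons in place of 3, 4 and 0; for dCas9 against untreated cells DESeq2 called 13, the fit of those groups alone 8, and the block 2. With at least 10 counts in every library the counts were 1, 2 and 0. All 60 alternative MeDIP ratios moved by less than the spread between replicates. With the longest transcript, 5 of 10 per-length levels moved by more than their SD over all 9 libraries. The number of libraries, 3 per group, limits the precision to the 95% intervals given above.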
